A study of Mus musculus with 8 samples.

Results

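The 10 genes studied here, which coat or break down lipid droplets, were followed in white quadriceps, the pale and mostly fast-twitch part of the mouse thigh muscle. They were taken by name from the deposited expression table, 10 of its 54091 rows: the lipase Pnpla2, its activator Abhd5, its inhibitors Hilpda and G0s2, the lipases Lipe and Mgll, and the perilipins Plin2, Plin3, Plin4 and Plin5. The RNA came from males, 11 to 14 weeks old, after 7 days on a diet with 60% fat, and the muscle was taken in the morning. The 4 control libraries (replicates 1 to 4) carried the genotype Loxp/Loxp, meaning loxP sites at both copies of Acot2, the gene of a mitochondrial acyl-CoA thioesterase. The 4 knockout libraries (replicates 5 to 8) carried CKM Cre, labelled as a knockout of Acot2 in muscle. CKM is muscle creatine kinase, whose promoter drives Cre in skeletal and heart muscle, so other cells of the tissue would keep the gene. All 8 libraries shared the diet, sex, age range and tissue. Since the controls had no Cre, the effects of Cre and of the loss of Acot2 cannot be told apart. The series asks how Acot2 bears on fat oxidation in glycolytic muscle when lipid supply is high.

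A lipid droplet is a core of triglyceride under a single layer of phospholipid, coated by perilipins that hold lipases off or dock them. Fatty acids leave it in steps: Pnpla2 (ATGL) takes the first from triglyceride, Lipe (hormone-sensitive lipase) acts mainly on the resulting diglyceride, and Mgll splits the monoglyceride. Abhd5 (CGI-58) binds and activates Pnpla2, and G0s2 and Hilpda bind and inhibit it. In muscle, Plin5 sits where droplets touch mitochondria and can hold Abhd5, Plin2 is a general droplet coat, Plin3 moves between cytosol and droplet, and Plin4 covers small droplets. Several of these genes are known targets of the PPAR receptors, which sense fatty acids, and Hilpda is a known target of the hypoxia-inducible factors.

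The 3 members with the smallest p between the groups were Hilpda, Abhd5 and Mgll, and the sequence ahead of each is shown because the strongest differences among the members rest on them. The sequences are from RefSeq (GRCm38.p6), on the plus strand, 5′ to 3′, and stop before the annotated transcript. Capitals mark exact matches, on either strand, to 3 motifs: the core of a hypoxia element (ACGTG or GCGTG), a nuclear receptor core (AGGTCA) and a GC box (GGGCGG). They cover chr6:29272238-29272487 for Hilpda, chr9:122351366-122351607 for Abhd5 and chr6:88724162-88724411 for Mgll.
Hilpda: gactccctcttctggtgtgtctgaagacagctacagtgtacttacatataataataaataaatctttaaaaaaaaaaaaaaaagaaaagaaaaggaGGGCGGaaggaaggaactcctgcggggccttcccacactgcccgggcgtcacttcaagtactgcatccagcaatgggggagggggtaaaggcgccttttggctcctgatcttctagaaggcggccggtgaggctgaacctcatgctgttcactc
Abhd5: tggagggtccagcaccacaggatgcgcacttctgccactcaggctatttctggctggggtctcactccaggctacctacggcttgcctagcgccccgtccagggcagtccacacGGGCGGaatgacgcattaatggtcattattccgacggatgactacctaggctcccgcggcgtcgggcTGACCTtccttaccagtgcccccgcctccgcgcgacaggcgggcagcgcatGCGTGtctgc
Mgll: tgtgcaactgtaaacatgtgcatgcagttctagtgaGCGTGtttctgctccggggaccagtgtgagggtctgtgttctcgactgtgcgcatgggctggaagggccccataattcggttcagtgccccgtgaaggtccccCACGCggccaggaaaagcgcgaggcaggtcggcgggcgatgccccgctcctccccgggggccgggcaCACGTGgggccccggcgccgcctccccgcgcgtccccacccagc
The Hilpda stretch held 1 GC box, 154 bases before the start. The Abhd5 stretch held a GC box, a nuclear receptor core and a hypoxia core, 136, 69 and 18 bases before the RefSeq start. The Mgll stretch held 4 matches to the hypoxia core, 214, 111, 44 and 43 bases before the start, the last 2 being both strands of one palindrome. Hilpda has a further RefSeq start inside its annotated transcript, and the 250 bases ahead of that one held 3 hypoxia cores. Over the 14 RefSeq starts of the 10 genes, all of which were found in the promoter table, 9 held a hypoxia core, 3 a nuclear receptor core and 9 a GC box within 250 bases. Among 32851 mouse promoters of the same length the shares were 38.6%, 14% and 32.7%. These are matches of letters, and no binding was measured.

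Depth recovered from the deposited values was 55283991 to 109101297 reads per library. Control replicates 3 and 4 stood apart from the other 6 libraries on the first principal component, which held 34.5% of the variance: they lay at -55.2 and -56.1 and the others between -0.6 and 38.6. Short transcripts were low in control replicates 3 and 4, as described with the lengths of the members. Knockout replicates 5 and 8 were high in Ucp1 and Cidea, 2 of the 5 listed markers of brown fat. Knockout replicate 8 also held transcripts of heart, as described with the markers. Acot2, the targeted gene, was at 2965 ± 974 normalized counts in controls and 302.2 ± 45.2 in knockouts (SD, n = 4 each), 10.6% of the control level, and every knockout library lay below every control (limma, adjusted p = 4.72e-06). The fast myosin heavy chain Myh4 was at 2368101.3 or more normalized counts in every library. Acta1, the actin of skeletal muscle in general, was at 1897277.5 or more. Not every listed fast fibre marker was high: the troponin Tnnc2 was at only 73.9 to 129. In the same libraries the fast troponin Tnni2 was at 590549.1 or more. Why so few reads were counted for Tnnc2 was not tested. Whether the libraries are from separate animals is not stated in the labels, so every p rests on the spread among these 8 samples.

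Among the 10 genes, the inhibitor Hilpda was higher in every knockout library than in every control, by 1.64-fold between the groups, and the activator Abhd5 was lower in every knockout library, at 69.1% of its control level between the groups, while Pnpla2, the lipase both act on, differed by 0.09 log2 units. In all, 8 genes had higher and 2 had lower estimates in the knockouts, and none passed the threshold of an adjusted p under 0.05 over the 15657 genes tested with limma. Of all genes tested 0.00639% passed, which is Acot2 alone. At an unadjusted p under 0.05 there were 4 members with higher estimates (Hilpda, Mgll, G0s2 and Plin3) and 2 with lower ones (Abhd5 and Plin4), 6 of 10 against 26.9% of all genes tested. The median log2 difference, knockout minus control, was 0.29 for the members and 0.003 for all genes tested, of which 50.3% had higher estimates. In 2 members, Hilpda and Abhd5, the 4 knockout values did not overlap the 4 control values, as in 13.1% of all genes tested. In bulk tissue, fewer cells of a type and less RNA per cell cannot be told apart. All members were far above the detection floor of 3 reads, with 258 to 28762 recovered reads in any library.

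**Figure D1:**
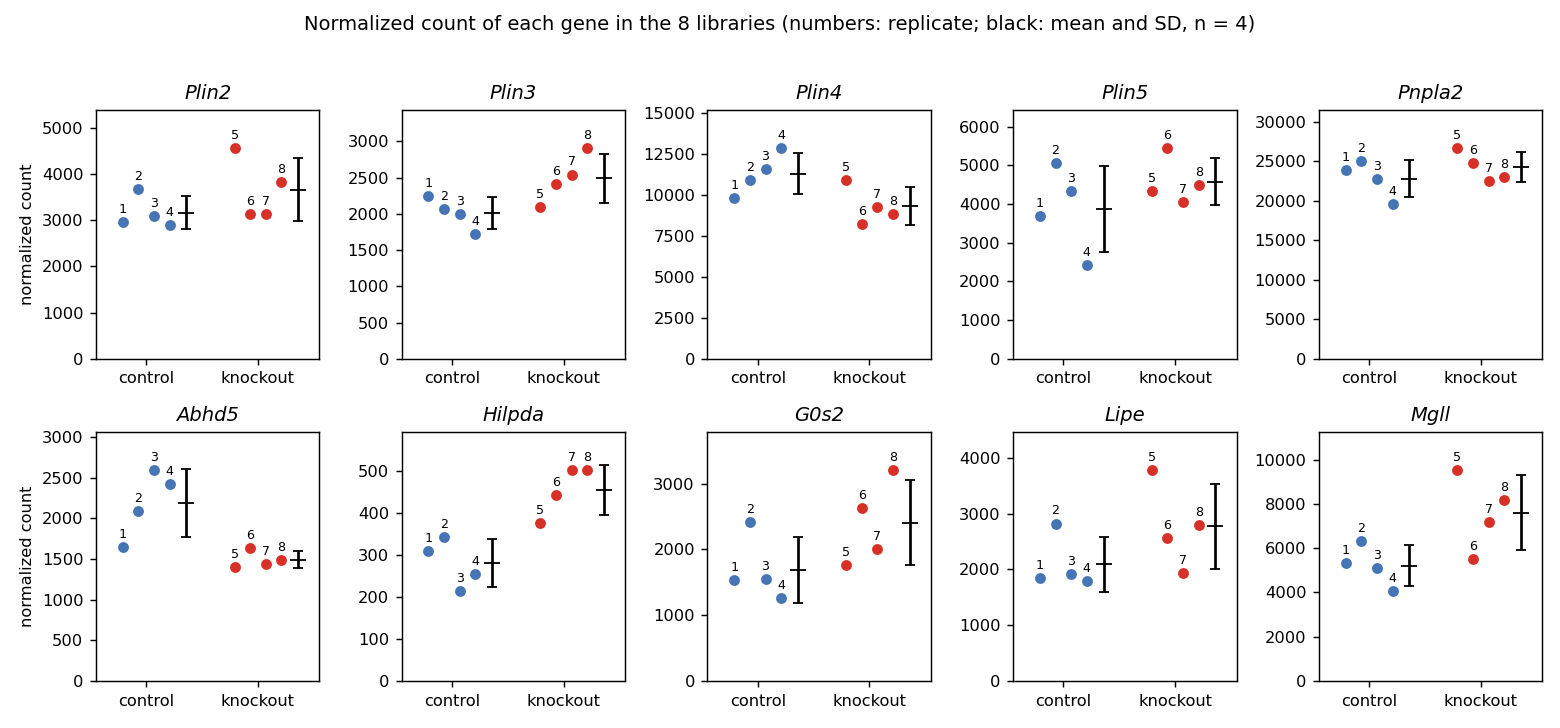
Normalized count (vertical axis, from 0, a scale of its own for each gene) of the 10 genes in the 4 control (blue) and 4 knockout (red) libraries, numbered by replicate, with the mean and SD (n = 4) in black. Hilpda and Abhd5 are the genes whose groups do not overlap, and control replicate 4 is the lowest library for 7 of the 10.

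Pnpla2, which starts lipolysis by cutting the first fatty acid from triglyceride, differed little between the groups (chr7:141455198-141460743, plus strand). For Pnpla2, control libraries 1 to 4 gave normalized counts of 23812.6, 25031.2, 22702.1 and 19524.9, and knockout libraries 5 to 8 gave 26644.4, 24743.2, 22517.1 and 22953.7. The groups overlapped over most of their range, with control replicate 4 lowest and knockout replicate 5 highest. The means were 22770 ± 2360 and 24210 ± 1880 (SD, n = 4 each), for a log2 difference of 0.09 and a 95% interval of -0.15 to 0.33 (limma, adjusted p = 0.62). Without control replicates 3 and 4 it was -0.015, and the interval, -0.24 to 0.21, spans changes of either sign.

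Abhd5, the protein that binds Pnpla2 and raises its activity, was lower in every knockout library than in every control (chr9:122351608-122381524, plus strand). For Abhd5, control libraries 1 to 4 gave normalized counts of 1648.3, 2091.9, 2593.2 and 2426.9, and knockout libraries 5 to 8 gave 1402, 1640.5, 1443.5 and 1488.2. The knockouts lay close together while the controls spread over a 1.57-fold range, and control replicate 1 was barely above knockout replicate 6. The knockout mean of 1494 ± 104 was 69.1% of the control mean of 2190 ± 417 on the log scale (SD, n = 4 each). In log2 units the difference was -0.53 with a 95% interval of -0.83 to -0.23, and it did not pass over all genes (limma, adjusted p = 0.0796). The exact permutation p was 0.0286 (two-sided), the lowest value possible with 4 libraries in each group. Without control replicates 3 and 4, which had the highest values, the log2 difference was -0.32 (-0.59 to -0.05; limma, adjusted p = 0.61) and the groups still did not overlap, as in 18.2% of all genes tested. Without knockout replicates 5 and 8 it was -0.49. Exons of A730085K08Rik on the other strand cover 16.0% of the exon bases of Abhd5, and whether reads were counted by strand is not given in the sources used here.

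Hilpda, a small droplet protein that inhibits Pnpla2, was higher in every knockout library than in every control (chr6:29272488-29275446, plus strand). For Hilpda, control libraries 1 to 4 gave normalized counts of 309.2, 344.6, 213.8 and 255.9, and knockout libraries 5 to 8 gave 377.2, 443.7, 502.4 and 503. Control replicates 3 and 4 were the lowest libraries, and the gap between the groups lay between control replicate 2 and knockout replicate 5. The means were 280.9 ± 57.7 and 456.5 ± 59.8 (SD, n = 4 each), a 1.64-fold difference on the log scale. On the log2 scale the difference was 0.71 with a 95% interval of 0.33 to 1.10, the largest of the 10 genes, and it did not pass over all genes (adjusted p = 0.0796 by limma; exact permutation p = 0.0286, two-sided). Without control replicates 3 and 4 it was 0.47 (0.095 to 0.85; limma, adjusted p = 0.606), with no overlap between the groups. Without knockout replicates 5 and 8 it was 0.77. With 258 to 482 reads per library, Hilpda was the member counted with the fewest reads.

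G0s2, the other inhibitor of Pnpla2, had a higher mean in the knockouts with overlapping groups (chr1:193272161-193273217, minus strand). For G0s2, control libraries 1 to 4 gave normalized counts of 1533.2, 2413.3, 1550.7 and 1257.9, and knockout libraries 5 to 8 gave 1761.7, 2633.7, 2009.4 and 3202.2. Control replicate 2 exceeded 2 of the 4 knockouts, and the other controls lay below all of them. The means were 1689 ± 501 and 2402 ± 648 (SD, n = 4 each), for a log2 difference of 0.51 and a 95% interval of 0.06 to 0.96 (adjusted p = 0.143 by limma; exact permutation p = 0.143, two-sided). Without control replicates 3 and 4 it was 0.28 and the interval ran from -0.40 to 0.96.

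The calls on Abhd5 and Hilpda depended on which control libraries were used. Both passed over all genes without control replicate 1 (adjusted p = 0.0337 and 0.0362 by limma), where 11% of all genes tested passed. Without control replicate 2, 4 members passed, Hilpda, G0s2, Mgll and Abhd5 (adjusted p = 0.0229, 0.0294, 0.0307 and 0.0364 by limma), where 13.1% of all genes did. With library quality weights Hilpda and Abhd5 passed (adjusted p = 0.0406 and 0.0413 by limma), where 7.67% of all genes did. The fits without control replicate 1 or 2 keep control replicates 3 and 4 among only 3 controls. Under the remaining 18 of 21 alternatives no member passed, limma voom on the recovered reads included.

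Ratios of members within a library do not depend on its scaling. The log2 ratio of Hilpda over Abhd5 was -2.41, -2.60, -3.59 and -3.24 over control libraries 1 to 4 and -1.89, -1.88, -1.52 and -1.56 over knockout libraries 5 to 8. The knockouts lay close together and above every control, and the controls were spread widely, with replicates 3 and 4 lowest. The difference of 1.25 log2 units is a 2.37-fold higher ratio. It is the sum of the differences of the 2 genes, whose groups already did not overlap, so it is a description of the balance and adds no support. Without control replicates 3 and 4 it was 0.79 log2 units, and without knockout replicates 5 and 8 it was 1.26. Hilpda has a short and Abhd5 a long transcript, and with the trend over length described further on removed it was 0.89.

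The ratio of Abhd5 over Pnpla2, activator over lipase, was -3.85, -3.58, -3.13 and -3.01 over control libraries 1 to 4 and -4.25, -3.91, -3.96 and -3.95 over knockout libraries 5 to 8. It was lower in all knockouts, by 0.63 log2 units (exact two-sided permutation p = 0.0286, adjusted over the 4 ratios p = 0.0571). The difference was 0.30 in the same direction without control replicates 3 and 4 and 0.36 with the length trend removed. The groups of Abhd5 already did not overlap and Pnpla2 differed little, so this ratio too describes the balance and adds no support. For G0s2 over Pnpla2 the groups overlapped and the difference was 0.42 (exact two-sided permutation p = 0.2, adjusted p = 0.267). It was 0.24 without knockout replicate 8, 0.23 with the length trend removed and 0.296 without control replicates 3 and 4. For Plin5 over Plin2, a mitochondria-linked coat against the general one, it was 0.08 (exact two-sided permutation p = 0.8), and its sign turned without control replicates 3 and 4 (-0.05), without control replicate 4 alone (-0.09), without knockout replicate 6 (-0.07) and with the length trend removed (-0.13). No ratio passed after adjustment over the 4. The lowest exact permutation p possible with these groups, 0.0286, gave an adjusted p of 0.0571 for Hilpda over Abhd5 and Abhd5 over Pnpla2. Full separation of only these pairs could therefore not pass.

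**Figure D2:**
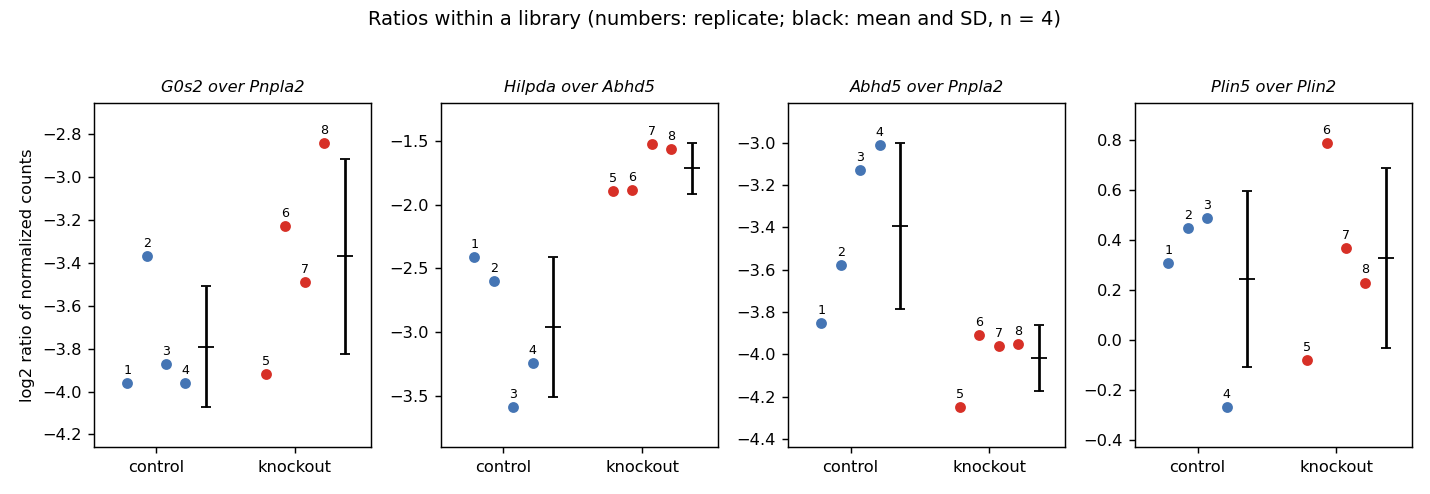
Log2 ratio of 2 normalized counts within each library (vertical axis, a scale of its own for each panel) for 4 pairs of members, control in blue and knockout in red, numbered by replicate, with mean and SD (n = 4). Hilpda over Abhd5 and Abhd5 over Pnpla2 are the pairs whose groups do not overlap.

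The lipases that act after Pnpla2 both had higher means in the knockouts, and both were highest in knockout replicate 5. Lipe, which takes the next fatty acid from diglyceride, gave normalized counts of 1853, 2825.3, 1914.5 and 1785.4 over control libraries 1 to 4 and of 3782.2, 2570.5, 1944.9 and 2790.8 over knockout libraries 5 to 8 (chr7:25379527-25398710, minus strand). Control replicate 2 lay above 3 of the 4 knockouts. The means were 2095 ± 490 and 2772 ± 763 (SD, n = 4 each), with a log2 difference of 0.39 and a 95% interval of -0.02 to 0.80 (adjusted p = 0.206 by limma; exact permutation p = 0.2, two-sided). On the other strand, exons of 4732471J01Rik cover 15.6% of the exon bases of Lipe.

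Mgll, which completes lipolysis by splitting monoglyceride, showed the larger difference of the pair (chr6:88724412-88828360, plus strand). For Mgll, control libraries 1 to 4 gave normalized counts of 5323.8, 6343.1, 5121 and 4055.4, and knockout libraries 5 to 8 gave 9527.9, 5529.1, 7202.1 and 8202.4. Knockout replicates 5, 7 and 8 lay above every control, and knockout replicate 6 lay below control replicate 2. The means were 5211 ± 938 and 7615 ± 1690 (SD, n = 4 each), a 1.45-fold difference on the log scale. In log2 units this was 0.54 with a 95% interval of 0.17 to 0.90 (adjusted p = 0.0861 by limma; exact permutation p = 0.0571, two-sided).

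Lipe and Mgll, like Pnpla2, Plin4 and G0s2, are also abundant in fat cells, and markers of fat cells varied among these libraries. Plin1, the perilipin of adipocytes, gave 1391.8, 2497.8, 1205.1 and 1374.7 normalized counts over control libraries 1 to 4 and 3732.7, 1552.8, 807.8 and 1417.4 over knockout libraries 5 to 8. Knockout replicate 5 and control replicate 2, the libraries with the most Plin1, also had the most Lipe. Ucp1, which marks brown fat, was at 1458.2 and 885.1 in knockout replicates 5 and 8, at 133.4 in control replicate 3 and at 16.8 or less elsewhere. Knockout replicates 5 and 8 had the highest Mgll and Plin2. Without these 2 libraries, a fit chosen after seeing the data, the log2 difference was 0.29 for Mgll (limma, adjusted p = 0.438), 0.12 for Lipe (0.778) and -0.003 for Plin2 (0.992). That fit leaves out the libraries with the highest Mgll and Plin2, so smaller differences were fixed by the choice. Plin1 in knockout replicate 8 lay inside the control range, and that library also held heart transcripts. The part of fat cells in these 3 differences was not tested.

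The 4 perilipins had estimates of both signs. Plin4, a coat protein abundant in fat and muscle, was the only one with a lower mean in the knockouts (chr17:56100591-56109803, minus strand). For Plin4, control libraries 1 to 4 gave normalized counts of 9811.5, 10921.4, 11601.9 and 12851.8, and knockout libraries 5 to 8 gave 10901.7, 8242.8, 9276.4 and 8841.3. Of the knockouts, 3 lay below every control and knockout replicate 5 lay inside the control range. The means were 11300 ± 1270 and 9316 ± 1140 (SD, n = 4 each), for a log2 difference of -0.28 and a 95% interval of -0.54 to -0.02 (adjusted p = 0.159 by limma; exact permutation p = 0.0571, two-sided).

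Plin3, the coat that moves between cytosol and droplet, had 3 of its 4 knockout values above every control (chr17:56277476-56292873, minus strand). For Plin3, control libraries 1 to 4 gave normalized counts of 2249.8, 2063.7, 2000.7 and 1727, and knockout libraries 5 to 8 gave 2097.1, 2408, 2543.2 and 2908. The means were 2010 ± 216 and 2489 ± 336 (SD, n = 4 each), for a log2 difference of 0.30 and a 95% interval of 0.03 to 0.57 (adjusted p = 0.145 by limma; exact permutation p = 0.0571, two-sided). Neither Plin3 nor Plin4 turned sign under any of the 21 alternatives, with ranges of 0.19 to 0.38 and -0.36 to -0.14.

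Plin2, the general coat that follows the amount of stored lipid in many cells, overlapped between the groups (chr4:86648386-86670060, minus strand). For Plin2, control libraries 1 to 4 gave normalized counts of 2965.2, 3685.4, 3087.3 and 2907.6, and knockout libraries 5 to 8 gave 4566.5, 3140.4, 3140.4 and 3827.3. Knockout replicates 5 and 8 were the highest libraries, and knockout replicates 6 and 7 lay inside the control range. The means were 3161 ± 357 and 3669 ± 681 (SD, n = 4 each), with a log2 difference of 0.20 and a 95% interval of -0.09 to 0.50 (adjusted p = 0.349 by limma; exact permutation p = 0.171, two-sided).

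Plin5, the coat of droplets that touch mitochondria, lies 1.8 kb from Plin4 on the same strand (chr17:56111601-56117596). For Plin5, control libraries 1 to 4 gave normalized counts of 3682.9, 5046, 4343 and 2418.7, and knockout libraries 5 to 8 gave 4332.1, 5442.8, 4052.4 and 4487.8. Control replicate 4 was far below the others, and the remaining 3 controls overlapped the knockouts. The means were 3873 ± 1120 and 4579 ± 604 (SD, n = 4 each), with a log2 difference of 0.28 and a 95% interval of -0.12 to 0.69 (adjusted p = 0.341 by limma; exact permutation p = 0.343, two-sided). Without control replicates 3 and 4 it was 0.08, with an interval of -0.23 to 0.39, and without control replicate 4 alone it was 0.07.

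As shares of the summed level per kilobase of these 4 perilipins, Plin4 held 37.7 ± 6.9% in controls and 29.3 ± 3.2% in knockouts (SD, n = 4 each; exact two-sided permutation p = 0.0571). Plin5 held 34.9 ± 7.0% and 39.8 ± 4.9%, Plin2 17.2 ± 0.8% and 18.9 ± 2.7%, and Plin3 10.2 ± 1.3% and 12 ± 1.9%. The share of Plin4 was largest in control replicate 4, at 47.7%, where that of Plin5 was smallest, at 24.8%. In the other 3 controls Plin5 held more than Plin4, as it did in all 4 knockouts.

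The differences of the members were smaller once control replicates 3 and 4 were left out. Their median was then 0.17 in place of 0.29, with 7 higher and 3 lower estimates, and no adjusted p was under 0.606 (limma). Hilpda and Abhd5 were then the 2 members whose interval did not cross 0, which is an unadjusted p under 0.05 by limma. Of all 15657 genes tested, 683 with higher and 567 with lower estimates reached this. The median absolute log2 difference fell from 0.347 to 0.217 for the members. For all genes tested it fell too, from 0.263 to 0.165. Transcript length also set these 2 libraries apart. Among the 3786 genes with the shortest exon totals (56 to 2393 bases), which include G0s2 (871), Hilpda (1103) and Plin5 (2087), the median deviation from each gene's mean was -0.29 and -0.31 log2 units in control replicates 3 and 4 and 0.06 to 0.17 in the other libraries. The median knockout difference of those genes was 0.27, and 0.09 without control replicates 3 and 4. Among genes of 4097 to 6461 bases, which include Mgll (5077), Plin4 (5777), Lipe (5886) and Abhd5 (5956), the median difference was -0.06. With the trend over length and GC content removed, Hilpda was at 0.48, G0s2 at 0.18, Plin5 at 0.03 and Abhd5 at -0.41. Mgll (0.56) and Lipe (0.44) were slightly above their values in the fit as reported.

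**Figure D3:**
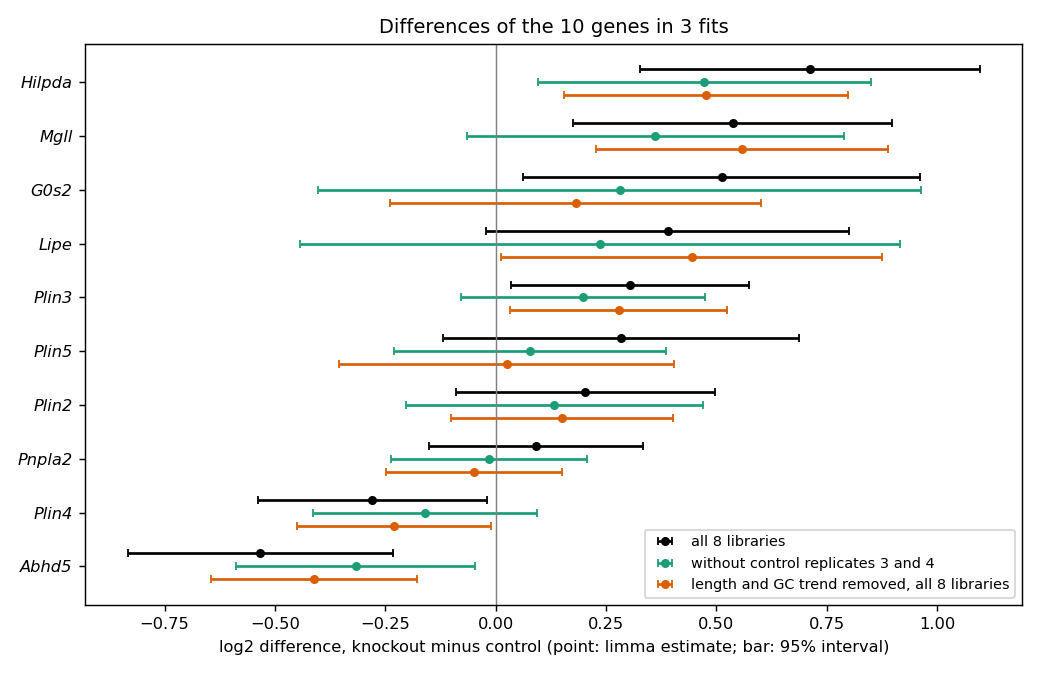
Log2 difference, knockout minus control (horizontal axis; point, limma estimate; bar, 95% interval), of the 10 genes with all 8 libraries (black), without control replicates 3 and 4 (green) and with the length and GC trend removed (orange). The intervals of Hilpda and Abhd5 stay on one side of 0 in all 3 fits, and those of the other 8 genes cross 0 in at least 1.

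Levels were compared between genes as normalized count per kilobase of exon. Pnpla2 stood highest, at 7539 ± 782 in controls (SD, n = 4), above 97.5% of genes tested and apart from the next gene. Plin4 (1955 ± 220), G0s2 (1939 ± 576) and Plin5 (1856 ± 536) followed at a like level, with overlapping ranges. Mgll (1026 ± 185) and Plin2 (900.2 ± 102) overlapped next, and the highest control of Mgll (1249) was above the lowest of Plin5 (1159). Plin3 (531 ± 57.2) was separate from Plin2 above it and Abhd5 below it, but its lowest control (456.2) lay below the highest of Lipe (480). Abhd5 (367.7 ± 70), Lipe (355.8 ± 83.3) and Hilpda (254.7 ± 52.3) were lowest, each overlapping its neighbour, and Hilpda was still above 62.7% of genes tested. In the knockouts Abhd5 was lowest (250.8 ± 17.5) and Hilpda next (413.9 ± 54.2). Hilpda was above Abhd5 per kilobase in all 4 knockouts and also in control replicate 1 (280.3 against 276.7), and below it in the other 3 controls. Exon lengths are the union of annotated exons, and a different isoform in use would shift a level.

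**Figure D4:**
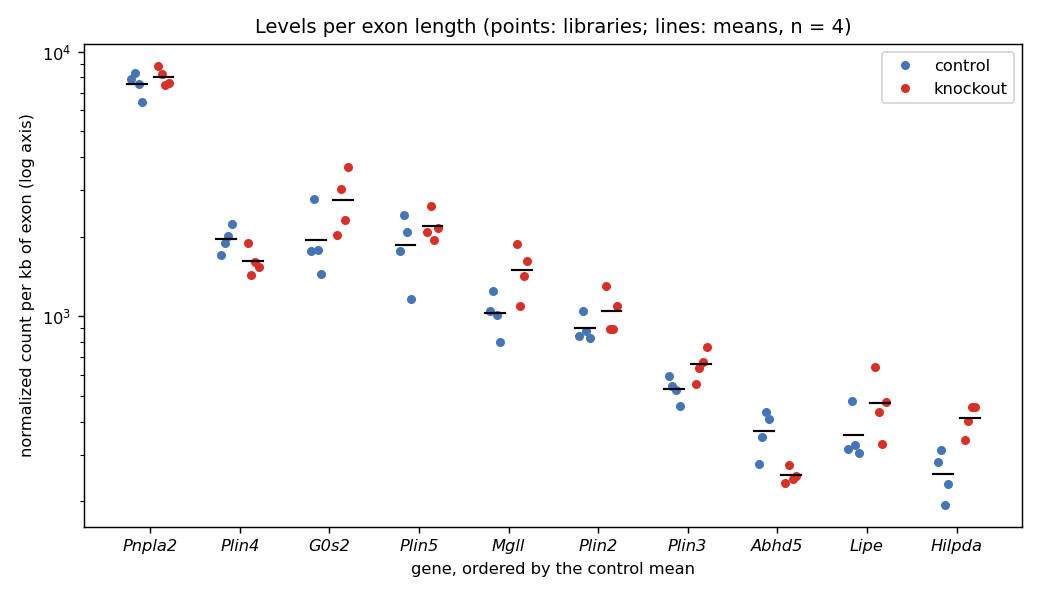
Normalized count per kilobase of exon (vertical log axis) for the 10 genes, ordered by the control mean, with each control (blue) and knockout (red) library as a point and group means (n = 4) as lines. Pnpla2 lies above all others, and the group means of Abhd5 and Hilpda exchange places, while in control replicate 1 Hilpda is already the higher.

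Other genes of the pathway were read from lists, and no listed gene passed over all genes (limma). Among 27 tested partners of lipid droplets, such as their synthesis enzymes and fusion proteins, 11 were estimated higher and 16 lower (median -0.01), and 2 and 5 had an unadjusted p under 0.05. The lowest p were those of Pcyt1a, an enzyme of phosphatidylcholine synthesis (-0.64), the fusion protein Snap23 (-0.53) and the phospholipase Pnpla8 (-0.40), in log2 units. All 3 were highest in control replicates 3 and 4, and without them the values were -0.34, -0.28 and -0.17. Among 20 genes of the hormonal control of lipolysis through cyclic AMP, 14 had lower estimates, with a median of -0.18 (-0.07 without control replicates 3 and 4), and 2 higher and 7 lower ones had an unadjusted p under 0.05. Gnas, the stimulatory G protein, was at 4255 normalized counts in controls and 2361 in knockouts (-0.94 log2 units, limma, adjusted p = 0.0796). It kept this difference without control replicates 3 and 4 (-0.93), and its 4 and 4 values did not overlap. The insulin receptor Insr (-0.47) and the adenylyl cyclase Adcy9 (-1.63) were the next, and both were high in control replicates 3 and 4: without them the values were -0.17 and -0.75.

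Of 20 targets of the PPAR receptors, 8 were estimated higher and 12 lower (median -0.11, and -0.01 without control replicates 3 and 4), and 3, all lower, had an unadjusted p under 0.05. Among these were the acyl-CoA synthetase Acsl1 (-0.56) and the carnitine palmitoyltransferase Cpt1b (-1.42). Cpt1b was at only 68.8 normalized counts in controls and 27.1 in knockouts, where Acsl1 was at 28890 and 19210. Why so few reads were counted for Cpt1b was not tested. Of 16 hypoxia response genes, 8 were estimated higher and 8 lower (median -0.02), and 1 and 3 had an unadjusted p under 0.05. The lowest p were those of the mitochondrial protein Higd1a (0.45), the demethylase Kdm3a (-0.43) and the kinase Pdk1 (-0.38). With control replicates 3 and 4 left out, these were 0.19, -0.195 and -0.15, Acsl1 was at -0.30 and Cpt1b at -1.12.

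Markers of other cells were read beside the members. Of 10 white adipocyte markers 9 were estimated higher, with a median of 0.26. The median was 0.02 without control replicates 3 and 4, -0.005 without knockout replicate 5, 0.51 without knockout replicate 7 and 0.49 without control replicate 2. The summed normalized count was 64043 to 97889 in controls and 87622 to 112970 in knockouts, mostly from Lpl and Fabp4. Plin1 did not follow this sum. It was lowest of all libraries in knockout replicate 7, at 807.8, where the sum was 87622. Fabp4 (0.75), Cfd (0.49) and Lpl (0.13) had the smallest p. All 5 brown adipocyte markers were estimated higher (median 0.59, and 0.14 without knockout replicates 5 and 8). Their sum was 18678 to 36338 in controls and 36233 to 46103 in knockouts, mostly from Cox8b, which muscle also expresses. Cox8b differed by 0.59, Cidea by 1.38 and Ppargc1b by 0.24. Ucp1 and Cidea were highest in knockout replicates 5 and 8, and the other markers did not share this pattern. Elovl3 was at 17.1 normalized counts or less in every library, and Ppargc1b was highest in knockout replicate 7. Cox8b in knockout replicate 5 lay inside the control range. All 10 macrophage markers were estimated higher (median 0.57), against 50.3% of all genes tested. Of them 8 had an unadjusted p under 0.05 (limma), against 26.9% of all genes tested. Without control replicates 3 and 4 all 10 were still estimated higher, with a median of 0.47. C1qa differed by 1.10, Cd14 by 1.00 and Lyz2 by 0.64. Their sum was 8549.9 to 12562 in controls and 12797 to 20247 in knockouts. Hilpda and Mgll are also expressed in macrophages. The part of macrophages in their differences was not tested.

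Neutrophil markers were near absent. Ly6g had no read in any library, and S100a9 (1.07), S100a8 (0.51) and Csf3r (0.24) together with the others summed to 152.7 normalized counts at most. Of 11 fast fibre markers 5 were estimated higher and 6 lower (median -0.04), and 3 and 2 had an unadjusted p under 0.05. The short transcripts among them, Pvalb (0.81), Tnni2 (0.60) and Mylpf (0.48), had the smallest p. The 8 slow fibre markers had a median of 0.35 that single libraries decided, at -0.14 without control replicate 4, -0.03 without knockout replicate 6 and 0.77 without control replicate 3, with sums of 75760 to 238680 in controls and 74227 to 160550 in knockouts. Among them Myh2, listed here as slow although it encodes a fast oxidative myosin, was at -0.37, Tnnc1 at 0.71 and Tnni1 at 0.63. Myh2 was the largest part of these sums in every library, so the sums do not follow slow fibres alone. All 9 tested heart markers were estimated higher (median 0.97), and those of smallest p were Myl4 (1.03), Tnni3 (1.82) and Tnnt2 (0.81). This rested on knockout replicate 8: Myl7, the atrial myosin light chain, was at 1124.4 there and at 4.1 or less in the other 7 libraries. Without knockout replicate 8 the heart median was 0.04. The differences of Hilpda and Abhd5 without that library were 0.66 and -0.53.

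**Figure D5:**
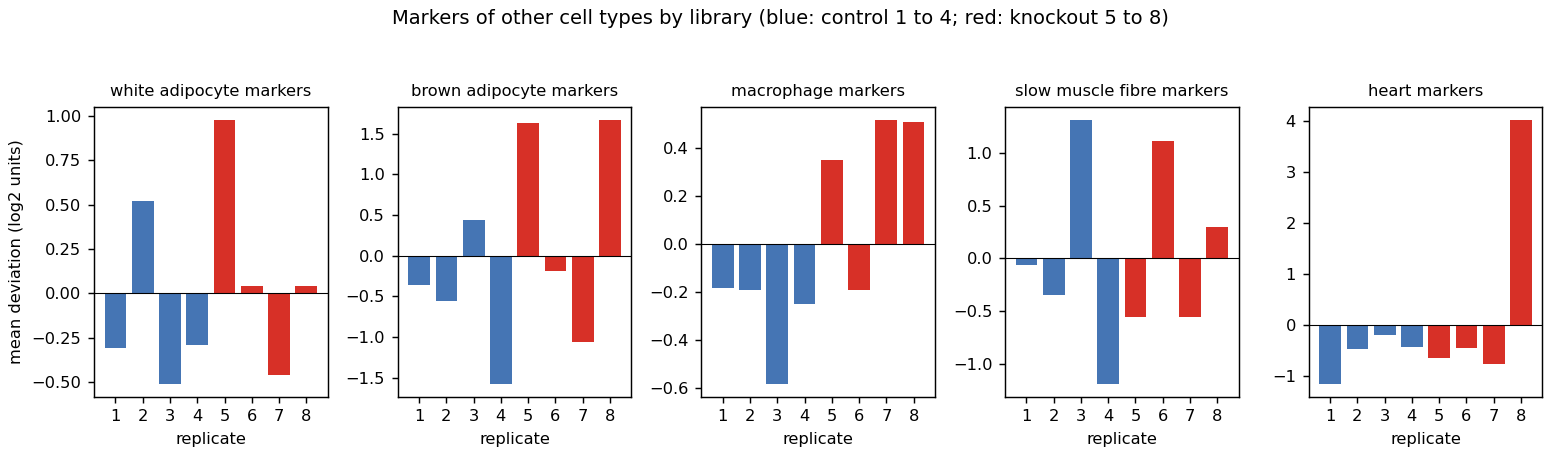
Mean deviation of the markers of 5 cell types from their gene means (vertical axis, log2 units, a scale of its own for each panel) in control replicates 1 to 4 (blue) and knockout replicates 5 to 8 (red). Knockout replicate 8 stands out for heart markers (4.03), and knockout replicates 5 and 8 for brown adipocyte markers (1.63 and 1.67). The brown adipocyte values rest largely on Ucp1 and Cidea.

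Among themselves, the members were compared by the distance between their values over the 8 libraries. This distance is small also between genes that vary little, so it does not show that they rise and fall together. With each gene centred on its own mean, Plin2 and Pnpla2 were the closest pair, with a root mean square difference of 0.157 log2 units. Their values spanned only 0.65 and 0.45 log2 units. Plin2 and Lipe followed at 0.178. Abhd5 and Hilpda were the farthest, at 0.719. For the 5 members whose values spanned over 1 log2 unit, the closest patterns among 11597 genes with a mean of at least 100 normalized counts were taken. Nearest to Hilpda were Nt5c (0.070), a nucleotidase, and Pgam2 (0.078), the muscle phosphoglycerate mutase. Nearest to Mgll were S100a10 (0.085) and L3hypdh (0.107), and to G0s2 Alad (0.110) and Chmp5 (0.130). Plin5 was nearest to A330069E16Rik (0.106) and Gm11716 (0.112), and Lipe to Mfng (0.110) and Rab3d (0.15). These are descriptions over 8 libraries, 4 to a group.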

How the data were processed

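White quadriceps RNA was sequenced in 8 libraries, made per the labels' protocols with a Norgen Biotek extraction kit and NEBNext Ultra II. Per the submitters' processing notes, the tools were STAR, HTSeq, cutadapt, DESeq2 and FastQC, on GRCm38. For their versions, settings, annotation and use of strand, nothing is given in the sources used here. The authors deposited log2 values, 1 column per library. With the log2 undone and 1 subtracted, the values are multiples of 1 step per library (0.6788 to 1.2897), to within 0.1 read for 100% of those from 1 to 1000 reads, so they are read as log2(normalized count + 1), reads divided by a size factor and not by gene length. Recovered depth was 55283991 to 109101297 reads, and the floor of 3 reads is a normalized count of 2.04 to 3.87, which covers counting error only. Of 54091 rows, 27189 were above 0 in any library, and 27 names turned into dates were restored.

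The 15657 genes whose normalized counts averaged at least 10, all 10 members among them, were tested in R 4.3.3 with limma 3.58.1, on the deposited log2 values, using eBayes with its trend and robust options, and adjusted by Benjamini-Hochberg over all genes tested. A log2(normalized count + 1) scale understates the change of low genes. Single values also had exact two-sided permutation tests over the 8 libraries. The fit was also run on simulated reads, drawn for each gene separately and without the split of control replicates 3 and 4. That run cannot show how the fit behaves under such a split. Exon lengths, overlaps and coordinates were taken from GENCODE for GRCm38, possibly another annotation than the submitters', and promoters from RefSeq. The trend over exon length and GC content was removed for 15136 genes by loess (span 0.5). The members and the 11 gene lists were chosen with earlier results of these data known, and lists are given as counts and medians with no test. The genes named were the 10 members, Acot2, from each list the 3 tested genes of smallest p, and for members spanning over 1 log2 unit the 2 most alike genes with a mean of at least 100. Of the genes so named, 1 is not reported here. Other marker genes (Plin1, Ucp1, Myl7, Ly6g, Myh4, Acta1, Tnnc2 and Elovl3) were named after their values were seen. Alternatives were other pseudocounts, filters, scalings, variance models, voom, the trend removal and libraries left out. The fit without knockout replicates 5 and 8 was chosen after seeing the data. Tables and plots were made in Python 3.11.15 with scipy 1.17.1, pandas 2.3.3, numpy 2.4.6 and matplotlib 3.10.9.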

Additional observations from a re-analysis of the deposited data

Results flagged for a closer look

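In 3 of 28 groups of 4 libraries checked, over the 10 genes and the 4 ratios, 1 library lay far from the other 3. The gap to the nearest library is given as a share of the group's whole range, and chance flags about 1 in 20 groups.

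Lipe was high in control replicate 2, at 11.46 on the log2 scale against 10.80 to 10.90 in the other controls (share 0.848). In the same library Plin1, the adipocyte perilipin, was the highest of the controls at 2497.8 normalized counts. The log2 ratio of G0s2 over Pnpla2 was also high in control replicate 2, at -3.37 against -3.96 to -3.87 (share 0.854). The log2 ratio of Abhd5 over Pnpla2 was low in knockout replicate 5, at -4.25 against -3.96 to -3.91 in the other knockouts (share 0.855), the library with the least Abhd5 (1402) and the most Pnpla2 (26644.4).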

How the results depend on the processing

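No paired analysis was possible because the controls are numbered 1 to 4 and the knockouts 5 to 8, so the groups share no replicate number. Over 21 alternatives, the sign of Plin3, Plin4, Abhd5, Hilpda, G0s2, Lipe and Mgll and of the members' median (0.15 to 0.37) did not turn. That of Pnpla2 turned with the length and GC trend removed (-0.049), without control replicates 3 and 4 (-0.015) and with both (-0.053). Plin5 turned with both (-0.008) and Plin2 without knockout replicates 5 and 8 (-0.003). The ratio of Plin5 over Plin2 turned with the trend removed (-0.125), without control replicates 3 and 4 (-0.054) and with both (-0.127), and ran from -0.091 to 0.215 when single libraries were left out. For the other 3 ratios the sign did not turn in 14 alternatives.

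Members called numbered 0, and 2 with library quality weights, a fit whose weights stopped short of their convergence tolerance. With single libraries left out they numbered 0 to 4. Genes called higher numbered 0 as reported, 4 with plain eBayes, 593 with weights and 1 with the trend removed. Genes called lower numbered 1 as reported, 2 with no filter, 2 with equal totals, 3 with plain eBayes, 608 with weights and 3 with the trend removed. With single libraries left out, 0 to 1024 were called higher and 1 to 1024 lower. Counts above 1 came without control replicate 1 (867 and 855) or 2 (1024 and 1024). The cause was not tested. The neutrophil list gave no median at a mean of at least 50. With 2 libraries in a group, exact tests cannot go below p = 0.0667, and with 4 in each not below 0.0286. Depth did not limit the members, the least counted of which had 258 reads or more.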
